A study of Mus musculus with 7 samples.

Results

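The 5 genes described here encode enzymes that write or remove DNA methylation: Dnmt1, Dnmt3a, Tet1, Tet2 and Tet3. They were followed through the open chromatin around them in RAW264.7 cells, a mouse macrophage-like line that forms osteoclasts, the bone-resorbing cells, when given the cytokine RANKL. The assay was ATAC-seq, which marks open chromatin by letting a transposase cut and tag accessible DNA, and the authors deposited 1 list of peaks for each of 7 libraries. A peak was counted for a gene when its midpoint lay inside the gene body, or within 100 kb with that gene as the nearest protein-coding gene. By this rule 705 of 975394 peaks belonged to the 5 genes. Overlapping or touching peaks of the 7 lists were joined into regions, of which 220 of 344401 belonged to the 5 genes: 35 to Dnmt1, 67 to Dnmt3a, 21 to Tet1, 50 to Tet2 and 47 to Tet3. The members were thus chosen by peak calls in these same libraries, so their calls are given as a description with no test.

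DNA methyltransferases add a methyl group to cytosines that precede a guanine (CpG sites). Dnmt1 copies the pattern to the new strand after replication, whereas Dnmt3a sets new marks. The TET enzymes oxidise 5-methylcytosine to 5-hydroxymethylcytosine and further forms, the first steps of active demethylation. In macrophages and their precursors Dnmt3a and Tet2 are best known as genes whose loss alters myeloid cells, and DNA methylation is known to be remodelled when osteoclasts form.

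The groups were untreated cells (2 libraries), cells given RANKL at 50 ng/ml (2), cells given RANKL at 50 ng/ml with the inhibitor I-BET at 500 nM (2), and cells given I-BET at 500 nM without RANKL (1, labelled replicate 2), with 4 h of treatment. I-BET blocks the acetyl-lysine pockets of the BET proteins, which read acetylated histones. All libraries came from the RAW264.7 line, although the source field of the labels names bone marrow, and nothing in the labels says whether replicates were separate cultures. The design asks how open chromatin differs early after RANKL and how it differs when BET proteins are blocked, alone or together with RANKL.

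The lists held 117175 to 166369 peaks covering 58.4 to 119.1 Mb. Read counts are not given, so depth is unknown. Untreated replicate 1 stood apart: the share of its regions that no other list held was 42.9% (8.95% to 27.1% in the other 6), and the share of its peaks that reached a -log10 q of 5 was 25.3% (36.8% to 74.0% in the other 6). RANKL+I-BET replicate 2 had the longest list and the largest covered length. A peak within 1 kb of the start (or of a gene end where no start is listed) was called in every library at 8 of 8 macrophage marker genes. The same was true of 1 of 4 B lymphocyte, 0 of 4 T lymphocyte, 1 of 5 fibroblast and osteoblast, and 0 of 5 granulocyte and erythroid markers, and Cd3e, Cd8a, Mpo and Alas2 had such a peak in no library. In a population of cells, a site open in fewer cells and a site less open in every cell cannot be told apart. With 2 libraries against 2, a two-sided exact permutation test cannot go below p = 0.333, so no p-value is given.

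The starts of transcription are shown first. The list of RefSeq starts used here (GRCm38.p6, the build of mm10) holds 9 for the 5 genes. It is not complete, with at least 1 start for 17492 of 21887 protein-coding genes. At Dnmt3a, Tet1, Tet2 and Tet3 the gene body reaches upstream of the first listed start, so starts there may be left out. A start was under a peak in all 7 libraries at 6 of the 9 (2 of Dnmt1, 2 of Dnmt3a, and those of Tet2 and Tet3) and in no library at the other 3 (1 each of Dnmt1, Dnmt3a and Tet1). Of 21263 listed starts 47.3% were under a peak in all 7 and 39.9% were under a peak in none. The 2 Dnmt1 starts share a region, as do the 2 Dnmt3a starts, so the 6 are not separate sites. The 250 bases before a start are printed for 4 starts that were under peaks and then for the 3 that were not, read in the direction of the gene, with CpG sites in capitals.
Dnmt1, chr9:20952980-20953229, minus strand: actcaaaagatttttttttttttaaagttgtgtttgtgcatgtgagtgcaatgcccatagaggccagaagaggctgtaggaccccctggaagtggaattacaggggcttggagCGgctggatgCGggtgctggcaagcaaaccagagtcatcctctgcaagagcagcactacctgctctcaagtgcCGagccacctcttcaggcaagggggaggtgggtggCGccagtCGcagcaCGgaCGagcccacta
Dnmt3a, chr12:3806730-3806979, plus strand: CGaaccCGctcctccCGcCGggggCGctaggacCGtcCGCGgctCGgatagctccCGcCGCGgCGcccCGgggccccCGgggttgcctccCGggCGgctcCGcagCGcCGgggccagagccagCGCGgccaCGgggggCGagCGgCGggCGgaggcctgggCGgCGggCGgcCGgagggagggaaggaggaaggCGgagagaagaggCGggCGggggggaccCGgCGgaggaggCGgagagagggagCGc
Tet2, chr3:133544391-133544640, minus strand: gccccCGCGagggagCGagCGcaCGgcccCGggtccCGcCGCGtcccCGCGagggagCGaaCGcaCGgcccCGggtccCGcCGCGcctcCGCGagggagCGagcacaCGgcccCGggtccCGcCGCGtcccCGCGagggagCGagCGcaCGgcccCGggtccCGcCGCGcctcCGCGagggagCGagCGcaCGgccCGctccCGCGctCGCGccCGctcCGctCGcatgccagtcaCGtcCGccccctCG
Tet3, chr6:83441679-83441928, minus strand: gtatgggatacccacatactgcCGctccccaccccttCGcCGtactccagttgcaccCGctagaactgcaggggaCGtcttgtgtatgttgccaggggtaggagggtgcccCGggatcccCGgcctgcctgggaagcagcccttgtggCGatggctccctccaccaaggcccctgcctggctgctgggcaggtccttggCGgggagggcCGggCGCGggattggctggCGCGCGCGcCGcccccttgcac
Dnmt1 outermost start, chr9:20959889-20960138, minus strand: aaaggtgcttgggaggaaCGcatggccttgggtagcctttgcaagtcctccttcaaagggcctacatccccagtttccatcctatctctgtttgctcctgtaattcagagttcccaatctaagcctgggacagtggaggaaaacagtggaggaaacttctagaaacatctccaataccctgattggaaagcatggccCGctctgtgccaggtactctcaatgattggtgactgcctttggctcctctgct
Dnmt3a internal start, chr12:3891494-3891743, plus strand: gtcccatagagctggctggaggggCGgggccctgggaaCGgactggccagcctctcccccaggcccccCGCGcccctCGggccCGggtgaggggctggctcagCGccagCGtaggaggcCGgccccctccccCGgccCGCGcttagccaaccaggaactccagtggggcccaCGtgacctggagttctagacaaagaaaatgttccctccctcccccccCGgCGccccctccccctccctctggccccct
Tet1, chr10:62887325-62887574, minus strand: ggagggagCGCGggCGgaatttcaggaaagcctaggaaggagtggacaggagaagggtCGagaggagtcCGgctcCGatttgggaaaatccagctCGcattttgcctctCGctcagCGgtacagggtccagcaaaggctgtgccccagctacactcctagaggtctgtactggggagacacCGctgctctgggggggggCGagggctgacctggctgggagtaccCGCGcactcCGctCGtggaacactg

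CpG sites were densest before the Tet2 start. Its window held 51, and 0.08% of all listed starts had as many or more, against a median of 10. The Tet2 window was also a tandem repeat: moved by 42 bases, it matched itself at 77.9% of positions, and 0.0329% of starts reached that for any move of 10 to 100 bases. The outer Dnmt3a starts, at 3806980 and 3807160, had 38 and 40 CpG sites. The 3 starts without a peak were not all poor in CpG: the Tet1 start and the internal Dnmt3a start had 15 each, close to the 17 of the open Tet3 start. The outermost Dnmt1 start had 2, the middle one, at 20952979, had 7, and the innermost, at 20952623, which lies downstream of the other two, had 26.

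A set of 9 motifs was searched on both strands of the 9 windows, and no 2 different motifs overlapped. The GC box GGGCGG, a site of Sp1-like factors, was found before 7 of the 9 starts and in 42.6% of all windows. The outer Dnmt3a starts had 5 and 4 of them, whereas Tet2 had 1, 11 bases before the start, and Tet3 had 1, 14 bases before it. CCAAT was found before the innermost and the outermost Dnmt1 start and the Tet3 start (35.4% of all windows). The E-box CACGTG was found before the internal Dnmt3a start, 80 bases upstream (6.63%). No window held TGANTCA of AP-1 (6.13%), GGGANTTTC of NF-kB (0.917%), GAGGAAGT of PU.1 (2.23%), CCGGAAGT of other Ets factors (3.79%), TGACGTCA of CREB (1.92%) or CGCATGCG of NRF1 (2.06%).

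**Figure D1:**
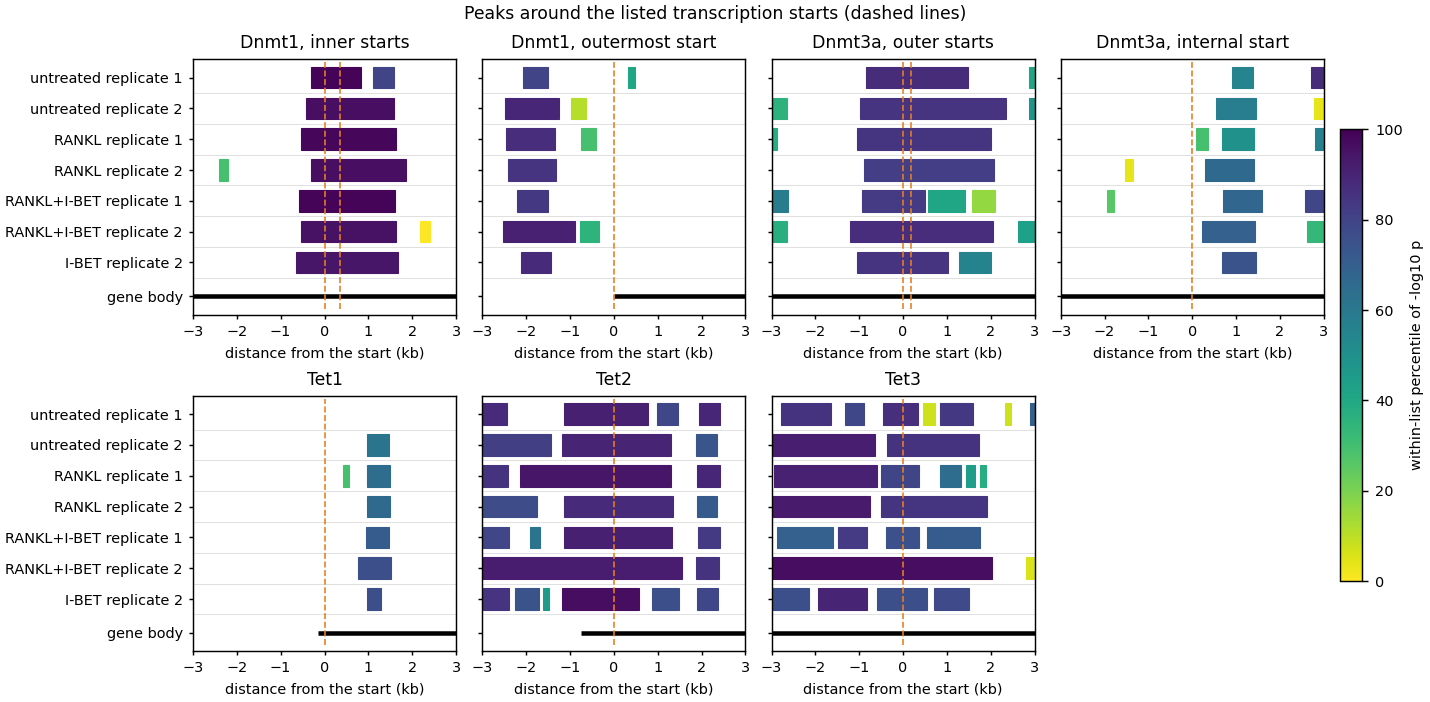
Peaks within 3 kb of the listed starts (dashed lines) in the 7 libraries, by distance from the start in the direction of transcription in kb, with colour for the percentile of the peak's -log10 p within its own list. Peaks lie across the inner Dnmt1, outer Dnmt3a, Tet2 and Tet3 starts in every library, and none lies across the outermost Dnmt1, internal Dnmt3a and Tet1 starts. Untreated replicate 1 has no peak in the Tet1 window.

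Dnmt1, the maintenance methyltransferase, spans chr9:20907206-20959888 on the minus strand. Its strongest region, chr9:20951118-20953633, held the innermost and middle starts. The strength of a peak is given as the percentile of its deposited -log10 p among the peaks of its own list (the highest where a region holds several). At this region the percentile was 99.2 and 96.3 in untreated cells, 98.2 and 96.3 with RANKL, 99.0 and 95.6 with RANKL+I-BET and 94.3 with I-BET. It was thus near the top of every list, whatever the treatment. A second region, chr9:20943020-20947167, 7.53 kb downstream of the innermost start, ranked at 90.3 and 96.4, 90.8 and 96.1, 87.6 and 96.6, and 94.3 in the same order of libraries. The third region called in all 7 libraries, chr9:20960224-20962409, lay upstream of the gene and did not reach the outermost start. The nearest peak of any region lay 329 to 1494 bases from that start. The 329 belonged to a peak of untreated replicate 1 in another region, chr9:20959410-20959559, inside the gene and called in that library alone. Most of the remaining 32 Dnmt1 regions were weak, and 19 were called in 1 library.

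Away from its start, calls at Dnmt1 did not always follow the groups. Inside the gene, chr9:20923165-20924221 had a peak in both untreated libraries, in RANKL replicate 2, in RANKL+I-BET replicate 2 and in I-BET, and in neither of the replicate 1 libraries with RANKL. At Dnmt1 as a whole, the start region included, peaks covered 5.86 and 10.7 kb in untreated cells and 8.17 and 10.0 kb with RANKL. They covered 5.94 and 11.5 kb with RANKL+I-BET and 6.81 kb with I-BET. The 3 groups of 2 libraries overlapped, and the I-BET library lay below both RANKL libraries. The I-BET list covered 68.2 Mb, against 81.0 and 82.4 Mb with RANKL. How many of all genes show this order in kb was not counted. As a share of each list (bases at the gene per Mb under any peak of that list), Dnmt1 took 100.3 and 145.7 per Mb in untreated cells, 100.9 and 121.6 with RANKL, 88.0 and 96.9 with RANKL+I-BET and 99.9 with I-BET. On this scale both RANKL+I-BET libraries lay below both RANKL and both untreated libraries. Of 15502 genes with covered bases in every library, 7.82% were lower in the same way in RANKL+I-BET than in RANKL (11.4% were higher), and 12.8% were lower than in untreated cells (12.8% were higher). In kb the same 2 libraries were the second lowest and the highest of the 7, with lists covering 67.5 and 119.1 Mb. The part of list size in the share was not tested.

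Dnmt3a, the de novo methyltransferase, spans chr12:3801559-3914443 on the plus strand and had the most regions of the 5 genes. Of all genes, 3.04% had as many or more. Its strongest region was not at a start: chr12:3870059-3875088, inside the gene and 19.2 kb upstream of the internal start, ranked at 98.8 and 97.4 in untreated cells, 98.8 and 97.4 with RANKL, 97.8 and 99.0 with RANKL+I-BET and 96.8 with I-BET. This block was 5.03 kb long. It belonged to a cluster with chr12:3854147-3857710, chr12:3860593-3862889 and chr12:3867772-3869524, all called in the 7 libraries with median percentiles of 95.6, 94.1 and 88.4. The region over the outer starts, chr12:3805780-3809318, ranked lower, at 87.5 and 84.9, 84.5 and 81.9, 82.8 and 87.3, and 84.8. The strongest region therefore outranked the start region in every library. The internal start was 93 to 904 bases from the nearest peak, and the region just downstream of it, chr12:3891837-3893329, was called in all 7 libraries at percentiles of 49.8 to 74.4.

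The covered length at Dnmt3a was 18.1 and 24.6 kb in untreated cells, 22.9 and 25.4 kb with RANKL, 20.2 and 36.6 kb with RANKL+I-BET and 19.2 kb with I-BET. The 3 groups of 2 libraries overlapped on this scale, and the I-BET library lay below both RANKL and both RANKL+I-BET libraries. This order in kb was not counted over all genes, and the part of list size in it was not tested. Per Mb of the list, Dnmt3a took 310.1 and 333.5 in untreated cells, 282.8 and 308.6 with RANKL, 299.8 and 306.9 with RANKL+I-BET and 281.7 with I-BET. Both RANKL and both RANKL+I-BET libraries were below both untreated libraries, by a narrow margin (308.6 against 310.1 at the closest). Among the 15502 genes, 17.4% were lower with RANKL than in untreated cells without overlap and 12.3% were higher. For RANKL+I-BET against untreated cells 12.8% were lower and 12.8% were higher. One region was missing from a single library: chr12:3842792-3843938, with percentiles of 72.0 to 83.1 in 6 libraries, had no peak in untreated replicate 1.

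**Figure D2:**
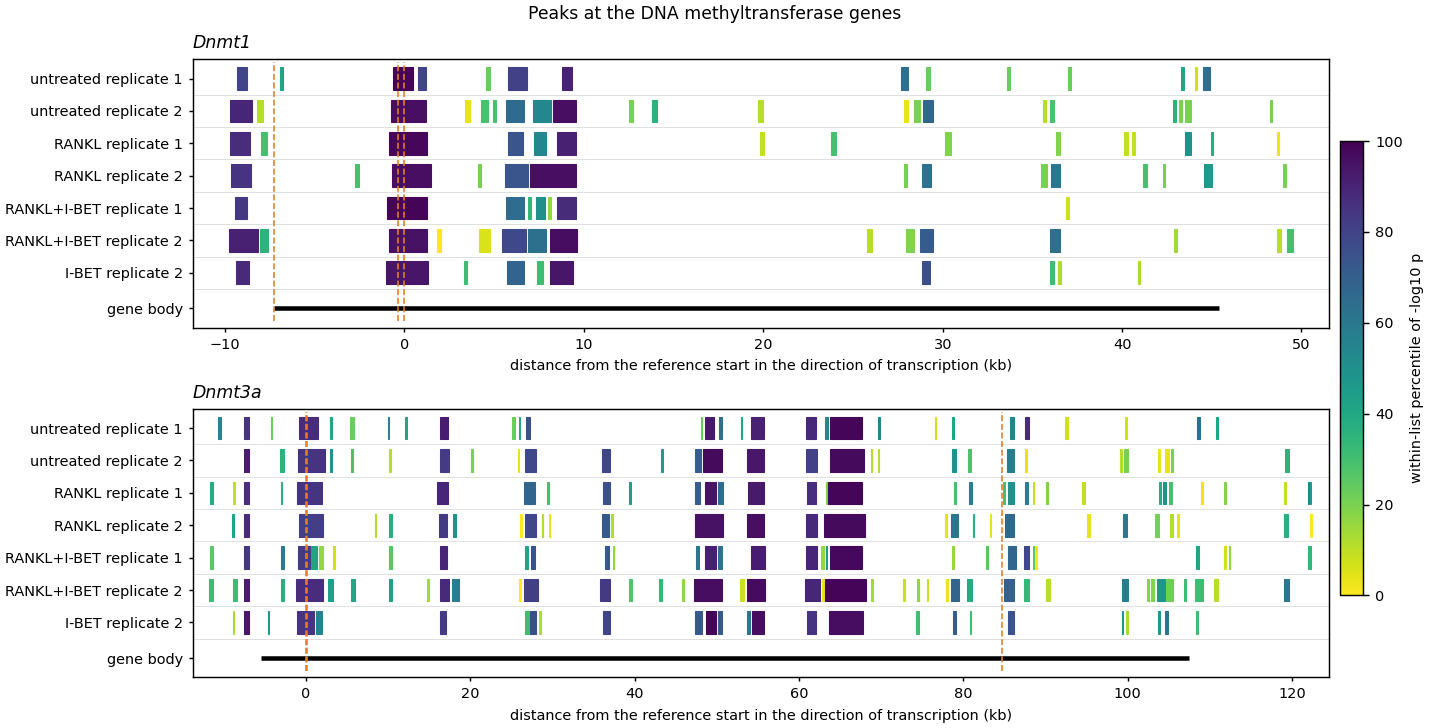
Peaks of the 7 libraries along Dnmt1 and Dnmt3a, by distance in kb from the innermost listed start of Dnmt1 and the outermost of Dnmt3a in the direction of transcription; dashed lines are listed starts, the black bar is the gene body and colour is the within-list percentile. The dark blocks at the starts, just downstream of them in Dnmt1 and ahead of the internal start in Dnmt3a are in every library, and the light, weak peaks differ from library to library.

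Tet1, the TET enzyme best known from embryonic stem cells, spans chr10:62804570-62887469 on the minus strand and had the fewest regions. No peak lay on its start. RANKL replicate 1 alone had a weak peak 415 bases downstream. The region chr10:62885799-62886555, 1.15 kb downstream, was called in 6 libraries, at 61.5 in untreated replicate 2, 64.8 and 66.2 with RANKL, 71.4 and 75.8 with RANKL+I-BET and 76.0 with I-BET. Untreated replicate 1, the list with the weakest peaks, had no peak there, and its nearest peak was 8635 bases away. The strongest Tet1 region, chr10:62808027-62808800, lay near the other end of the gene, 78.9 kb from the start, and ranked at 88.5 and 72.2, 93.1 and 83.4, 88.3 and 86.1, and 72.6. The only other Tet1 region called in all 7, chr10:62895340-62896389, lay 8.54 kb upstream and ranked between 0.854 in untreated replicate 1 and 63.6 in RANKL+I-BET replicate 1.

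Of the 21 Tet1 regions 14 were called in 1 library, and 9 of those 14 came from untreated replicate 1. Its Tet1 values are therefore set apart from untreated replicate 2. The covered length was 2.73 and 2.01 kb in untreated cells, 2.76 and 2.40 kb with RANKL, 2.02 and 3.77 kb with RANKL+I-BET and 2.11 kb with I-BET. Per Mb of the list the values were 46.7 and 27.3, 34.1 and 29.2, 29.9 and 31.6, and 30.9. The untreated pair enclosed all 5 other libraries on the second scale.

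Tet2, the TET gene most often mutated in myeloid disease, spans chr3:133463677-133545136 on the minus strand. Most of its peaks lay outside the gene: 125 were outside and 52 inside, against 15 and 82 at Dnmt1, 33 and 186 at Dnmt3a, 12 and 34 at Tet1, and 9 and 157 at Tet3. Under the nearest-gene rule the farthest peak assigned to Tet2 lay 88070 bases from the gene. At Dnmt1, Dnmt3a, Tet1 and Tet3 it lay at 3935, 14859, 8609 and 3264 bases. The part of this unlike flank in the outside counts was not tested. The strongest region of all 5 genes, by the median over the 7 libraries, was chr3:133625889-133627919, 82.5 kb upstream of the Tet2 start. Its percentile was 83.9 and 98.6 in untreated cells, 98.8 and 99.1 with RANKL, 96.0 and 99.8 with RANKL+I-BET and 98.7 with I-BET. Untreated replicate 1 was the low library, and the other 6 were alike. The neighbour chr3:133622784-133625737 ranked at 89.9 and 93.2, 95.8 and 96.1, 93.8 and 96.8, and 96.1. The nearest gene by distance need not be the gene that such a region serves, and no file here bears on that.

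The Tet2 start lay in chr3:133542844-133547713, which ranked at 91.2 and 90.1 in untreated cells, 94.3 and 88.2 with RANKL, 91.4 and 92.5 with RANKL+I-BET and 96.8 with I-BET. Between the start and the far pair were 5 further upstream regions called in all 7 libraries, at 30.6, 38.6, 40.7, 43.0 and 56.6 kb. Together with 2 regions inside the gene, 10 Tet2 regions were in every library. Peaks covered 12.1 and 18.2 kb in untreated cells, 20.1 and 17.2 kb with RANKL, 16.6 and 26.4 kb with RANKL+I-BET and 16.2 kb with I-BET. Per Mb of the list Tet2 took 206.6 and 247.1, 248.0 and 209.0, 246.2 and 221.7, and 237.1. The 3 groups of 2 libraries overlapped on both scales, and in kb the I-BET library lay below both RANKL and both RANKL+I-BET libraries. Per Mb, I-BET (237.1) lay within the range of the other libraries. The order in kb was not counted over all genes. Tet2 is also the one member with peaks beyond the 100 kb limit: the farthest inside it was 88070 bases from the gene (RANKL+I-BET replicate 2 alone, percentile 50.8), and the nearest outside it was at 100645 bases, chr3:133645545-133646202, called in 6 libraries at percentiles of 63.0 to 84.2.

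Tet3, the TET enzyme known for oxidising the paternal genome in the zygote, spans chr6:83362373-83457208 on the minus strand. The listed start lay in chr6:83439640-83444990, 5351 bases long, the longest region of the 5 genes. It ranked at 86.5 and 91.6 in untreated cells, 90.9 and 92.9 with RANKL, 82.8 and 96.8 with RANKL+I-BET and 90.1 with I-BET. Another long block, chr6:83454910-83458210, lay across the 5′ end of the gene body, 14.9 kb upstream of the listed start, at percentiles of 91.2 to 96.3. The strongest region by its median was chr6:83381350-83382699, 59.7 kb downstream of the start, at 88.1 and 95.9, 91.2 and 95.6, 86.8 and 95.3, and 92.9.

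At Tet3 the replicate number went with the values. Peaks covered 11.6 and 16.6 kb in untreated cells, 12.8 and 19.0 kb with RANKL, 11.5 and 24.5 kb with RANKL+I-BET and 14.4 kb with I-BET, so that each replicate 2 library lay above each replicate 1 library. Per Mb of the list the values were 197.8 and 225.3, 158.1 and 230.9, 170.8 and 205.9, and 211.7, again with each replicate 2 library above each replicate 1 library. The region chr6:83450509-83451531 was called in both untreated libraries (85.4 and 78.8), in RANKL replicate 2 (66.2), in RANKL+I-BET replicate 2 (74.1) and in I-BET (80.8), but in neither replicate 1 library with RANKL. The labels do not say what a replicate number stands for, and its part in the values was not tested. How many of all genes split in the same way was not counted, so the split is not known to be particular to Tet3.

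**Figure D3:**
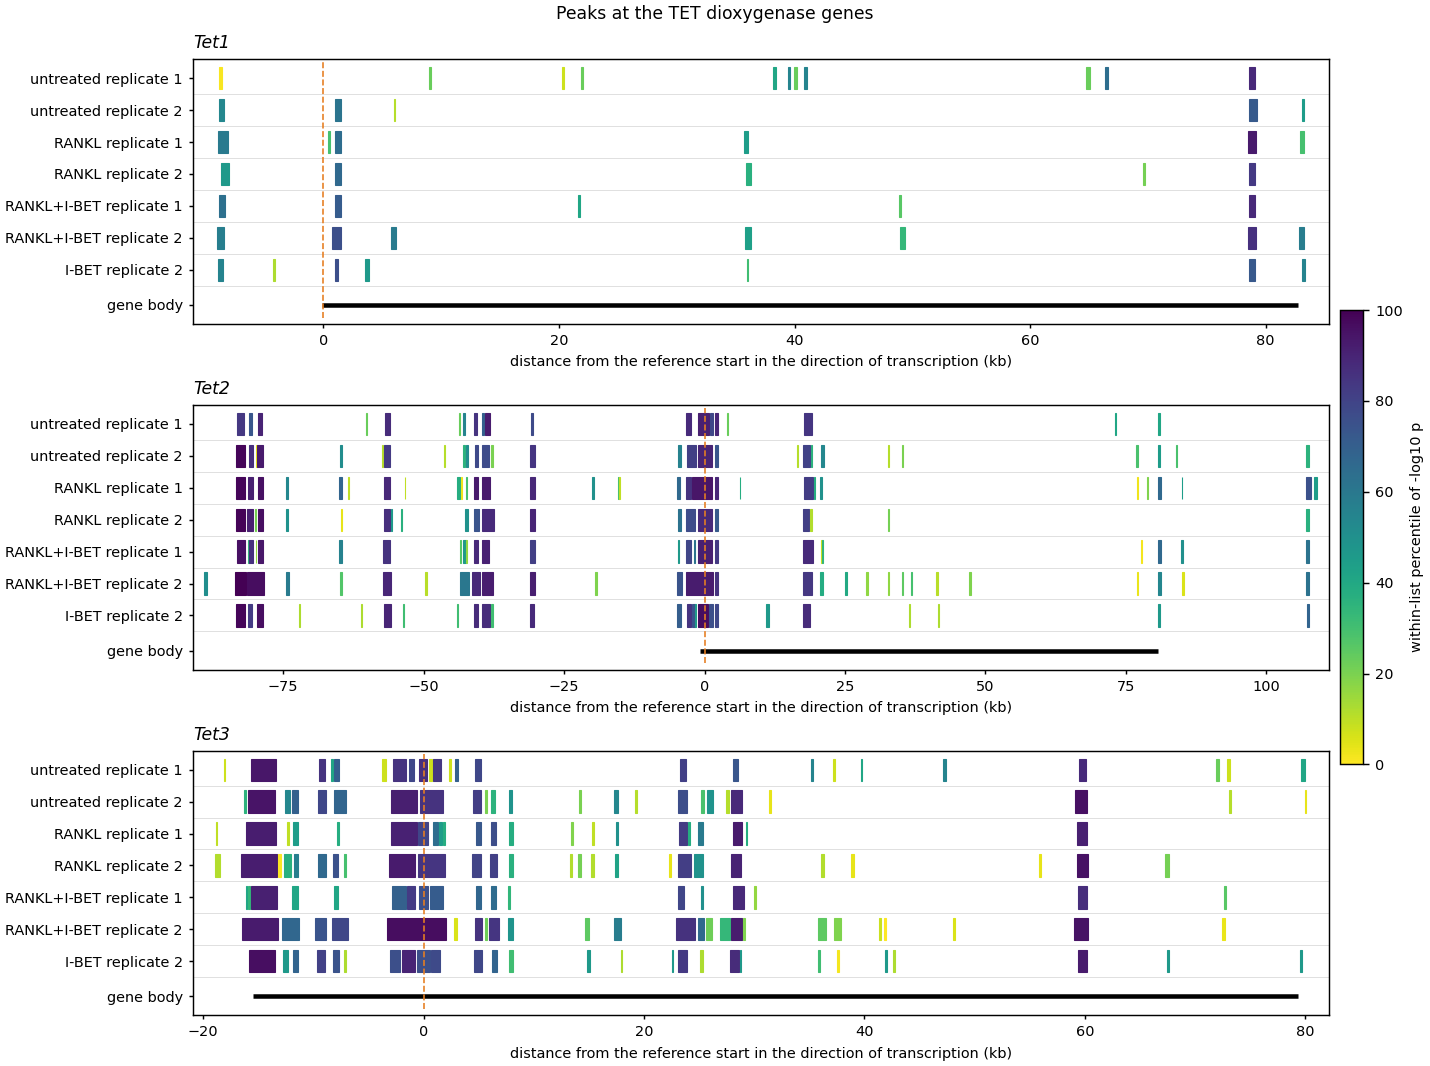
Peaks of the 7 libraries along Tet1, Tet2 and Tet3, drawn as for the methyltransferase genes: distance from the listed start in kb, within-list percentile in colour, gene body as a black bar. Tet1 is sparse with no peak on its start, Tet2 has its strongest peaks 82.5 kb upstream of its start, and most Tet3 peaks lie inside the gene.

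Set per length, the 5 genes kept 1 order in the 7 libraries, with Tet3 and Dnmt1 nearly equal in untreated replicate 2 (17.17% and 17.15%). The share of the gene body under peaks was 14.8% to 29.3% at Dnmt3a, 11.6% to 25.9% at Tet3, 9.93% to 17.2% at Dnmt1, 5.45% to 8.07% at Tet2 and 1.57% to 3.29% at Tet1. The ranges of Dnmt3a, Tet3 and Dnmt1 overlapped, while Tet2 lay below these 3 and Tet1 below Tet2 in every library. Of the 220 regions 32 (14.5%) were called in all 7 libraries, against 12.5% of all regions, and their median length was 1765 bases against 1312. Tet2 and Dnmt3a had 10 each, Tet3 7, Dnmt1 3 and Tet1 2. At the other extreme 108 regions (49.1%) were called in 1 library, against 55.6% of all regions.

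**Figure D4:**
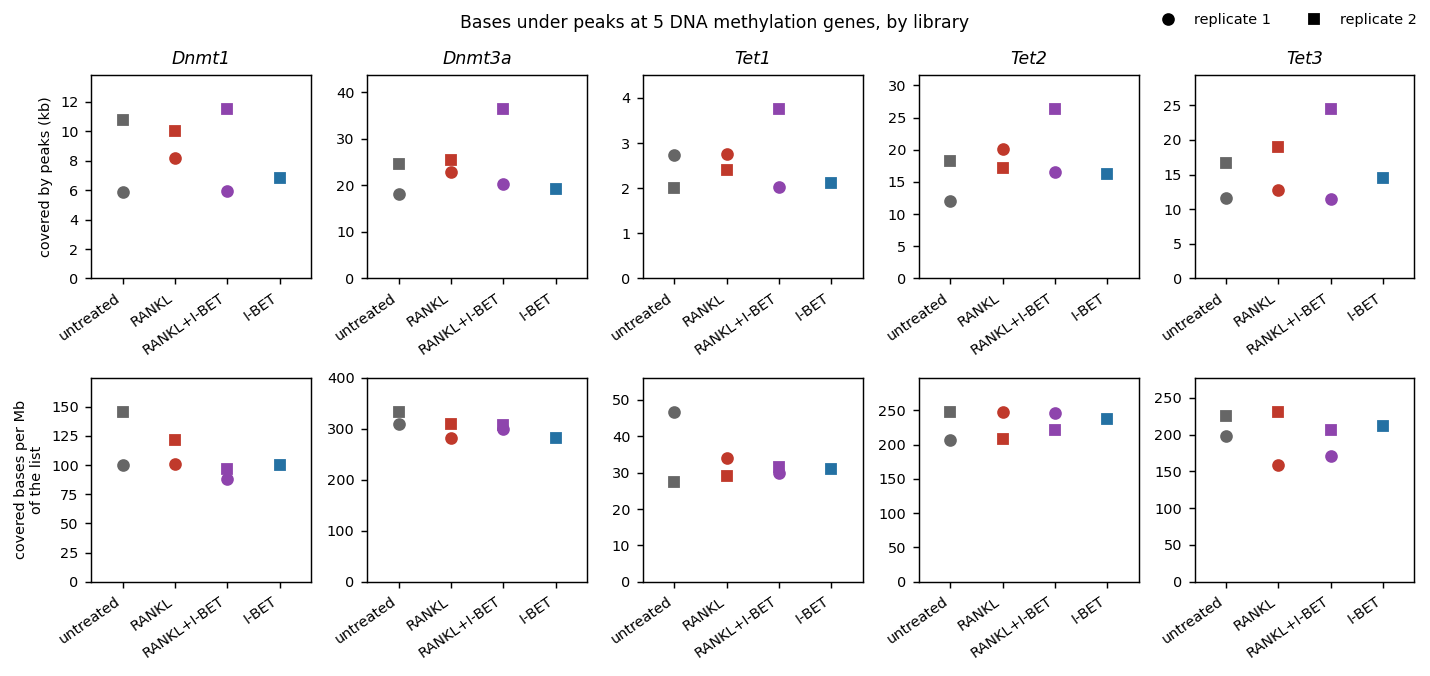
Bases under peaks at each gene in the 7 libraries, in kb (upper row) and per Mb of the list (lower row), by treatment; circles are replicate 1, squares replicate 2, and axes start at 0. In kb the libraries of a group lie apart, with RANKL+I-BET replicate 2 the highest at every gene, while per Mb Dnmt1 is lowest in the RANKL+I-BET pair and Dnmt3a highest in the untreated pair.

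With RANKL, 8 regions at the 5 genes were shared by both RANKL lists and absent from both untreated lists. They were 3 at Dnmt3a (chr12:3798013-3798593, chr12:3836324-3836652 and chr12:3928867-3929425), 1 at Tet1 (chr10:62851002-62851583), 1 at Tet2 (chr3:133618386-133618901), 3 at Tet3 (chr6:83426201-83426451, chr6:83428171-83428388 and chr6:83460202-83460613) and 0 at Dnmt1. Another 6 were shared by both untreated lists and absent from both RANKL lists: 1 at Dnmt1 (chr9:20909171-20909433), 3 at Dnmt3a (chr12:3809608-3810220, chr12:3812376-3812946 and chr12:3876583-3876825) and 2 at Tet3 (chr6:83361562-83362167 and chr6:83368403-83368816). Of the 175 regions called in any of these 4 libraries, the 8 were 4.57% and the 6 were 3.43%, against 3.37% and 0.748% of all regions. Another 32 were called in all 4 libraries.

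None of the 14 held a listed start, and all had percentiles of 55.0 or lower in the 2 libraries that define them. The RANKL peaks ranked at percentiles of 9.36 to 53.7 in RANKL replicate 1 and 0.468 to 49.6 in RANKL replicate 2, and the untreated ones at 7.55 to 55.0 and 3.63 to 48.6. The Tet2 region, 74.3 kb upstream of the start, had a deposited fold over background of 3.52 and 4.93 in the RANKL libraries, and none of the other 7 had a higher one. With a deposited -log10 q of at least 5 the counts were 1 and 0 in place of 8 and 6. The 1, at Tet3, was a region outside the 8. In RANKL replicate 1, 44.6% of peaks reached that q, and the 8 ranked at 53.7 or lower. With lists of equal length the counts were 2 and 7, which turns their order, and with 50% cover of the region 6 and 2. Leaving out a library drops a condition, so a count can then only grow: the 8 became 29 without RANKL replicate 1, 31 when RANKL replicate 2 was dropped and 20 without untreated replicate 2, and the 6 became 13 without RANKL replicate 2, 25 without untreated replicate 1 and 39 without untreated replicate 2.

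Bases were also compared, because peaks can differ in extent inside a region that both groups share. All peaks at the 5 genes were used, so the totals also hold bases of the regions that separated the groups above. The longest RANKL stretch at Tet2, 378 bases, lay in such a region, chr3:133618386-133618901. The base totals are therefore not separate from the region counts. Over the 5 genes 3872 bases were under peaks of both RANKL libraries and of neither untreated library, and 1445 the other way round, which is 3.53% and 1.32% of the bases under any of the 4 lists, against 4.14% and 0.643% over the genome. At Tet1 the share was 8.56%, of which 284 bases were 1 stretch, chr10:62895445-62895728, in the upstream region called in all 7 libraries. Both RANKL peaks covered all 284 bases, RANKL+I-BET replicate 1 covered 39, and the other 4 libraries covered 0. The peak was thus wider on its gene side in both RANKL libraries than in the other 5. At Tet2, chr3:133587045-133587446 went the other way: all 402 bases were covered in both untreated libraries and 0 in both RANKL libraries, with 385 and 402 in RANKL+I-BET and 0 in I-BET. At Tet3 the longest stretch, chr6:83416507-83416775, had all 269 bases covered with RANKL and 0 in untreated cells, with 15 and 269 in RANKL+I-BET and 89 in I-BET.

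When I-BET was given with RANKL, 3 regions were shared by both RANKL+I-BET lists and absent from both RANKL lists, 1 each at Dnmt3a (chr12:3869643-3870052), Tet1 (chr10:62837967-62838475) and Tet3 (chr6:83368877-83369273). The opposite held for 5: chr9:20907543-20908092 at Dnmt1, chr12:3836324-3836652 at Dnmt3a, and chr6:83426201-83426451, chr6:83428171-83428388 and chr6:83460202-83460613 at Tet3. These were 1.82% and 3.03% of 165 regions, against 1.86% and 0.571% of all regions. Tet2 had 0 in either direction. Of the 5, the 4 at Dnmt3a and Tet3 are among the 8 called with RANKL and not in untreated cells. That comparison shares the RANKL libraries with this one. Percentiles ran from 9.36 to 37.9 and 3.81 to 46.2 in the RANKL libraries for the 5, and were 16.3, 25.8 and 25.8 in RANKL+I-BET replicate 1 and 3.32, 33.5 and 3.32 in replicate 2 for the 3. With lists of equal length the counts of 3 and 5 became 2 and 2, and with 50% cover 1 and 2. With a -log10 q of at least 5 they were 1 and 0, and the 1, at Dnmt3a, was a region outside the 3. In RANKL+I-BET replicate 1, 48.1% of peaks reached that q, and the 3 ranked at 25.8 or lower. The 3 became 40 without RANKL+I-BET replicate 1, 11 without RANKL+I-BET replicate 2 and 10 without RANKL replicate 1, and the 5 became 12 without RANKL+I-BET replicate 2, 24 without RANKL replicate 1 and 23 without RANKL replicate 2.

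Of the 8 regions called with RANKL and not in untreated cells, RANKL+I-BET replicate 1 called 1 (at Dnmt3a, chr12:3928867-3929425) and RANKL+I-BET replicate 2 called 3 (at Dnmt3a, Tet1 and Tet2). Over the genome the same libraries called 39.9% and 85.3% of such regions. With 8 regions this is a description of these positions. In bases, 2679 were under both RANKL+I-BET peaks and neither RANKL peak and 1064 the other way round, or 2.21% and 0.879%, against 2.33% and 0.367% over the genome. The longest stretch at Tet2, chr3:133587045-133587429, was covered over its 385 bases in both RANKL+I-BET and both untreated libraries and over 0 in both RANKL libraries and in I-BET. It lies within the stretch given above for untreated cells. At Tet3, chr6:83412568-83412713 had all 146 bases under peaks of both RANKL+I-BET lists, while the other 5 libraries covered 0.

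Against untreated cells, RANKL with I-BET had 5 regions of its own: 2 at Dnmt3a (chr12:3795229-3795713 and chr12:3869643-3870052), and 1 each at Tet1 (chr10:62837967-62838475), Tet2 (chr3:133459081-133459558) and Tet3 (chr6:83368877-83369273). Untreated cells had 4: chr9:20909171-20909433 at Dnmt1, chr12:3876583-3876825 at Dnmt3a, and chr6:83361562-83362167 and chr6:83368403-83368816 at Tet3. Of 171 regions these were 2.92% and 2.34%, against 3.73% and 0.458% of all regions. The first comparison used the same untreated libraries, and all 4 untreated regions are among its 6. The Tet1 and Tet3 regions and chr12:3869643-3870052 were already named as called with RANKL+I-BET and not with RANKL. In bases the values were 3081 and 517, or 2.53% and 0.425%, against 4.8% and 0.216% over the genome. With lists of equal length the counts of 5 and 4 became 2 and 6, which turns their order, and with 50% cover 4 and 2. With a -log10 q of at least 5 they were 3 and 0. The 3 were outside the 5, which ranked at 50.2 or lower in RANKL+I-BET replicate 1, where 48.1% of peaks reached that q. The 5 became 37 without RANKL+I-BET replicate 1, 16 without RANKL+I-BET replicate 2 and 15 without untreated replicate 2, and the 4 became 12 without RANKL+I-BET replicate 2, 19 without untreated replicate 1 and 33 without untreated replicate 2.

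**Figure D5:**
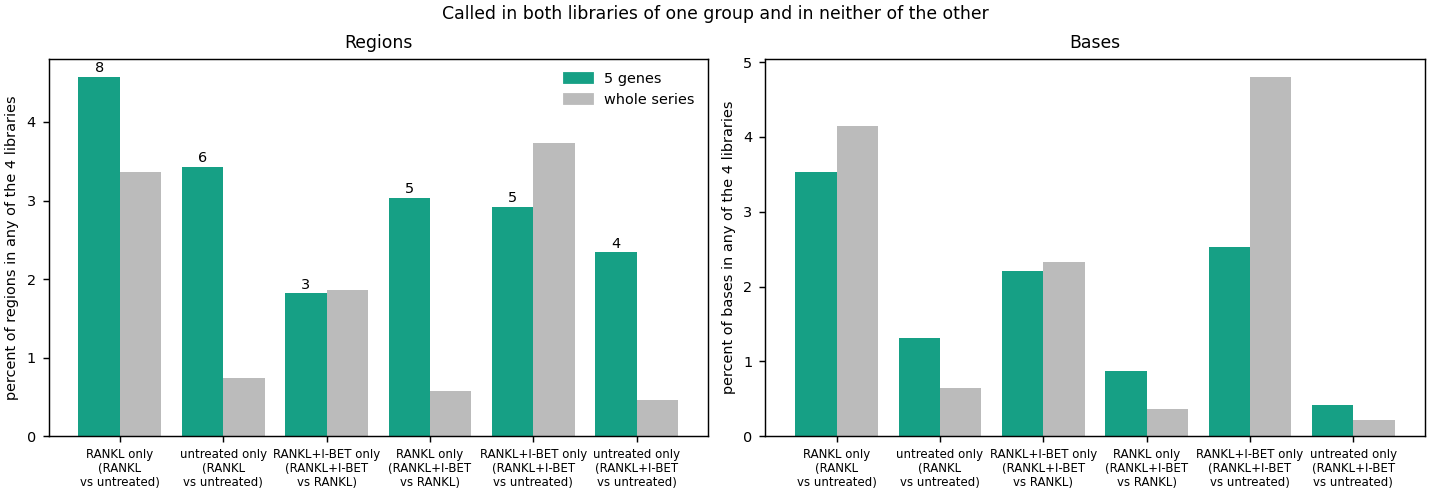
Percent of regions (left) and of bases (right) called in both libraries of one group and in neither of the other, for the 5 genes (green, with the number of regions above) and for the whole series (grey), in the 3 comparisons. On the left the bars of the 5 genes rest on 3 to 8 regions each, and on the right they also hold bases inside regions that both groups share. The second bar of each comparison, not called in the group with the added treatment, stands above the grey one in all 3. The 3 comparisons are not separate: the 4 untreated regions of the last are among the 6 of the first. With a -log10 q of at least 5 the region counts of these second bars are all 0.

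One region separated the libraries by RANKL alone: chr6:83361562-83362167, 509 bases beyond the 3′ end of Tet3, was called in both untreated libraries and in I-BET and in none of the 4 libraries with RANKL. Its percentile was 40.8 and 3.63 in untreated cells and 46.1 with I-BET, so the call was weak in each. Over the genome 84 of 344401 regions had this pattern. I-BET without RANKL has 1 library and no replicate check. At the strongest region of each gene its percentile was 94.3 at Dnmt1, 96.8 at Dnmt3a, 72.6 at Tet1, 98.7 at Tet2 and 92.9 at Tet3. These values lay inside the range of the 6 other libraries at Tet1, Tet2 and Tet3, and below their lowest value at Dnmt1 (95.6) and Dnmt3a (97.4).

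Another 38 genes that act with these enzymes (readers of methylated DNA, repair enzymes, cofactor metabolism and partners of Dnmt1) all had regions. In the first comparison 10 of the 38 (26.3%) had at least 1 region called with RANKL and not in untreated cells, against 27.0% of 19271 genes, and 5 (13.2%) had at least 1 of the opposite kind, against 8.48%. The median was 0 per gene in the list and over all genes, in each comparison and direction. Cxxc1, which binds unmethylated CpG sites as part of histone methyltransferase complexes, had 3 with RANKL. Idh2, a mitochondrial source of the 2-oxoglutarate that TET enzymes use, had 2, as did Usp7, a deubiquitinase that acts on Dnmt1. Between RANKL+I-BET and RANKL, 7 genes (18.4%, against 17.8%) had regions on the side with I-BET and 1 (2.63%, against 5.99%) on the side without. Smug1, a DNA glycosylase, and Uhrf2, a relative of the Dnmt1 partner Uhrf1, had 2 each with I-BET. Between RANKL+I-BET and untreated cells the numbers were 10 (26.3%, against 29.9%) and 3 (7.89%, against 5.51%), with 3 regions at Smug1 and 2 each at Cxxc1, Cxxc5, another CpG-binding protein, and Gadd45a, a stress protein linked to demethylation.

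The genes most like each member over the 7 libraries were found from log2 covered bases per Mb, centred on each gene's mean, by the root mean square difference. These likenesses describe 7 shared libraries and their list lengths. For Dnmt1 they were Gsn (0.08), which severs actin filaments, Rcc2 (0.09) and Dhrs3 (0.10), against a median of 0.34 over 5264 genes with a like number of regions. For Dnmt3a they were Polr1a (0.04), the largest subunit of RNA polymerase I, Fhad1 (0.04) and Xxylt1 (0.05), against 0.25 over 2364 genes. For Tet1 they were Ccdc188 (0.07), Anxa11 (0.07), an annexin, and Il12rb1 (0.08), an interleukin receptor chain, against 0.37 over 7535. For Tet2 they were Anapc4 (0.05), a subunit of the anaphase-promoting complex, Ppp2r5e (0.06) and Tspan14 (0.06), against 0.27 over 3670. For Tet3 they were Ranbp10 (0.02), the kinase Mink1 (0.04) and Cdk19 (0.04), a kinase of the Mediator complex, against 0.31 over 3838.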

How the data were processed

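The authors made the peak lists, 1 per library, with FastQC, cutadapt, Bowtie2, Picard, SAMtools, bedtools and MACS2 on mm10, per the submitters' processing notes, which give no versions or settings. The deposited columns are a score, a fold (the ratio of signal to background) and -log10 p and q values. In 100% of lines the score was 10 times the -log10 p, cut to its whole part. They served to rank or filter peaks within 1 list.

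Peaks of the 7 lists that overlapped or touched were joined with bedtools 2.31.1 (Python 3.11.15, pandas 2.3.3), and a library called a region when 1 or more of its peaks lay in it. RefSeq tables for GRCm38.p6 gave 21887 protein-coding genes and 21263 starts and matched 5 of 5 members. Exons, introns and UTRs were not used here. The method was tested on simulated peaks. Samples were grouped by their titles. Alternatives were stricter or equally long lists, 50% cover of a region, 50 kb in place of 100 kb, each replicate number alone and leaving out each library. The members and lists were chosen with earlier results of these data known. Named positions were regions of both libraries of one group and neither of the other, and each gene's strongest region by median percentile. Related genes were named from 2 such regions on, and 3 genes of like pattern for each member.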

Additional observations from a re-analysis of the deposited data

Results flagged for a closer look

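At Dnmt3a the 2 kinds of comparison with RANKL ran in opposite senses. Without I-BET, both RANKL libraries (282.8 and 308.6 covered bases per Mb of the list) lay below both untreated libraries (310.1 and 333.5). With I-BET, both RANKL+I-BET libraries (299.8 and 306.9) lay above the I-BET library (281.7), by 21.7 on average. The difference between these effects was not tested, and the second rests on 1 library of I-BET. Of 15502 genes, 7.64% showed the same kind of opposite movement.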

How the results depend on the processing

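The counts below are, in order, regions with RANKL and not untreated (8), the reverse (6), RANKL+I-BET and not RANKL (3), the reverse (5), RANKL+I-BET and not untreated (5), and the reverse (4). With a -log10 q of at least 5 they were 1, 0, 1, 0, 3 and 0. None of the regions counted at that q was among those counted without it. With lists of equal length they were 2, 7, 2, 2, 2 and 6, and with 50% cover of the region 6, 2, 1, 2, 4 and 2. Genes within 50 kb gave 7, 6, 3, 5, 5 and 4. Within replicate number 1 they were 50, 46, 13, 36, 26 and 45, and within replicate number 2 they were 30, 34, 53, 26, 42 and 19. Leaving out 1 library gave 9 to 31, 8 to 39, 4 to 40, 6 to 24, 6 to 37 and 4 to 33. These 1-against-1 and left-out counts ask for fewer libraries and are larger by construction. No paired analysis was possible because no test was fitted to which a replicate block could be added, so the counts within each replicate number, 1 library against 1, stand in its place. The labels do not say what a number marks. Over all regions the ratio of regions with RANKL to untreated regions ran from 2.90 with lists of equal length to 34.8 with the stricter -log10 q. Without read counts, a weak peak cannot be told from one missed at low depth.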

Other observations

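None of the 220 regions of the 5 genes separated all libraries with RANKL from all without by a call with RANKL. Over the genome 1823 of 344401 regions did. The 220 are 0.0639% of all regions, so a 0 here and in the next patterns says little about the 5 genes. Likewise 0 member regions were called in the 3 libraries with I-BET and in none of the other 4 (489 over the genome), and 0 in the 4 without I-BET and in none with it (26). Among the 38 related genes, 37 had at least 1 region called in all 7 libraries.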
